A study of Mus musculus with 6 samples.

Results

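Methylation was described here for the regions that held the most measured CpG cytosines in a comparison of liver tumors with normal livers. A region was taken when the authors' deposited table of differentially methylated regions with their nearest transcription start site (TSS) gave it 20 or more CpG cytosines, with no limit on the size of its difference. This rule took 476 of 14176 regions, which were 3.36% of the regions but held 19.7% of the 100093 CpG cytosines and spanned 337 kb. The other 13700 regions had 3 to 19 cytosines and served as the comparison. The samples were 3 normal livers and 3 liver tumors that carried a Ha-ras mutation, all from male C3H/HeN mice of 74 weeks. This inbred strain is known for liver tumors that arise in males without treatment. The mice were control animals of a project on gestational arsenite exposure and were kept on a standard diet and tap water. No source used here says if any tumor was paired with the normal liver of its own animal. DNA was cut with MspI, which cuts at CCGG, and sequenced after bisulfite treatment, which turns unmethylated cytosine into a base read as T. Each region carried 1 mean difference in percent methylation, tumor minus normal, in percentage points. A difference below 0 is called a loss, or hypomethylation in tumors, and one above 0 a gain, or hypermethylation.

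In mammals most CpG sites are methylated, while CpG islands, stretches where CpG has been kept at a high density, are largely unmethylated in normal tissue and often lie at promoters and first exons. Tumors are known to lose methylation over much of the genome while some CpG islands gain it, and methylation of a promoter island is a mark of a silenced gene. Methylation inside transcribed genes has other roles and can accompany active transcription. In bulk tissue a change of methylation within cells and a change in the mix of cells cannot be told apart.

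The following sequences show what such a region looks like and how it differs from a region with few cytosines. They were read from the reference genome GRCm38, the build mm10 of the deposited coordinates, on the plus strand, with each CpG that was printed whole in capitals. The reference comes from another inbred strain than the mice. The first stands for the largest gain and is the 200 bases with most CpG sites of a region in a coding exon of Scn8a (chr15:100983770-100983969), where 61 of 62 cytosines were differentially methylated cytosines (DMCs) and the difference was 62.5 points.
Scn8a: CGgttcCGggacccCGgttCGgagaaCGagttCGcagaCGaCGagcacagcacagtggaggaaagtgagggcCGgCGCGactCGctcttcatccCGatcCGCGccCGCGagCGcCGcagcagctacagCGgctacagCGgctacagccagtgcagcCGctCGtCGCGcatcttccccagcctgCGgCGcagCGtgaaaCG
The next is the 200-base stretch with most CpG sites in the largest loss, in an intron of Gm26562 far downstream of the listed gene Cpn2 (chr16:30186613-30186812), with 20 DMCs of 21 cytosines and a difference of -58.7 points.
Cpn2: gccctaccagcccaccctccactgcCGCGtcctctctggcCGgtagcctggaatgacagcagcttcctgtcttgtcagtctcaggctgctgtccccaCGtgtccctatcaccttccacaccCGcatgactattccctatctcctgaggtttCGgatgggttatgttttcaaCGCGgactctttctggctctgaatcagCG
The third set shows a gain and a loss near a TSS, each printed whole. The gain lay in a coding exon of Srd5a2, 114 bp from the TSS (chr17:74047591-74047802, 47.4 points), and the loss in a coding exon of Hyal2, 1046 bp from the TSS (chr9:107570209-107570426, -46.5 points).
Srd5a2: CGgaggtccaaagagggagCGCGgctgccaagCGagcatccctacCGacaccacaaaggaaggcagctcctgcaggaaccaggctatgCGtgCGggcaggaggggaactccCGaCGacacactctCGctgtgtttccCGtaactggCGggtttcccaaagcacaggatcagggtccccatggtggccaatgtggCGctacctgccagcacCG
Hyal2: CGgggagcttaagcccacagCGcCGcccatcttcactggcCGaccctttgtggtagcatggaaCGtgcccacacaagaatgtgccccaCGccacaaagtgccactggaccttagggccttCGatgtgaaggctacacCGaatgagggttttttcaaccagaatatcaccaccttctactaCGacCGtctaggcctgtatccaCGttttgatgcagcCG
The densest of the printed stretches comes from a coding exon of Dact3, listed under Gng8 (chr7:16885366-16885565). It held 43 CpG sites in 200 bases, and its region had 212 cytosines and a gain of 20.9 points.
Dact3: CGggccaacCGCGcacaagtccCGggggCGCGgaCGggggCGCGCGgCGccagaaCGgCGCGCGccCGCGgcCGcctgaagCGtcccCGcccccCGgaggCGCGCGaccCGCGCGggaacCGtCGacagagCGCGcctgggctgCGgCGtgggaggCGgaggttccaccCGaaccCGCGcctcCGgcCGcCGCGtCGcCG
For contrast, the regions with 3 or 4 cytosines that had the largest gain and the largest loss are printed whole. They were listed under A930013F10Rik (chr8:22636295-22636342, 76.95 points) and Rab11fip3 (chr17:26004847-26004940, -62.3 points) and held 2 and 3 whole CpG sites. The first base of the A930013F10Rik region is the G of a further CpG, cut by the start of the region.
A930013F10Rik: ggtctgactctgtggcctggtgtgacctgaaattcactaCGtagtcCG
Rab11fip3: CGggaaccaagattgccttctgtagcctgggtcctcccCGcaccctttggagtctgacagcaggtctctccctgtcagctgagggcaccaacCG

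The name CpG-rich was checked against the sequence, since the rule counts cytosines and not their density. The median density of measured cytosines was 5.42 per 100 bp in these regions (95% interval 4.98 to 5.87) and 3.48 in the others (3.43 to 3.52). The median ratio of observed to expected CpG in the reference was 0.53 against 0.42, and the median GC content was 58.8% against 52.0%. The label did not hold for all of them. Of the 476 regions, 105 (22.1%) lay below the median density of all regions, 3.53 per 100 bp, and 17 had under 2 cytosines per 100 bp. The lowest density was 1.24 per 100 bp, over 1693 bp of an intron of Lif, and the highest 31.7. A large count thus came from density in some regions and from length in others, and they are called here regions with 20 or more cytosines. Intervals given for shares are exact (Clopper-Pearson) and those for medians rest on order statistics. Both cover the number of regions alone and not the spread between mice, for which the table holds no values, so no test between the 3 tumors and the 3 normal livers was possible.

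Gains outnumbered losses in the regions with 20 or more cytosines, while the table as a whole consisted mostly of losses. Of the 476 regions, 267 had gained methylation (56.1%, 95% interval 51.5 to 60.6%), beside 14.9% over all regions, and 209 had lost it (43.9%, 39.4 to 48.5%), beside 85.1% over all regions. In the regions with fewer cytosines 86.5% were losses (85.9 to 87.1%). The difference between the shares of losses was -42.6 points (interval -47.1 to -38.0). That gains were the majority depended on the limit, since losses were 55.7% (52.4 to 59.0%) of the regions with at least 15 cytosines and 67.8% of those with at least 10 CpG dinucleotides in the reference. These regions made up 12.6% of the 2117 gains of the table and 1.73% of its losses.

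The share of gains was larger at larger numbers of cytosines, from 10.3% at 3 to 4 cytosines to 24.4% at 10 to 19, as the plot of gains by cytosine number shows. Above the limit it was 39.0% for the 251 regions with 20 to 29 cytosines, 63.8% for the 130 with 30 to 49, 92.4% for the 66 with 50 to 99 and 86.2% for the 29 with 100 or more. The intervals of the last pair of groups overlapped (83.2 to 97.5% and 68.3 to 96.1%). At the limit itself, 41.1% of the 56 regions with exactly 20 cytosines and 25% of the 52 with exactly 19 were gains. Over the 476 regions Spearman's rho between the number of cytosines and the signed difference was 0.32, and over all 14176 regions it was 0.21. These are descriptions over regions that share the same 6 libraries.

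**Figure D1:**
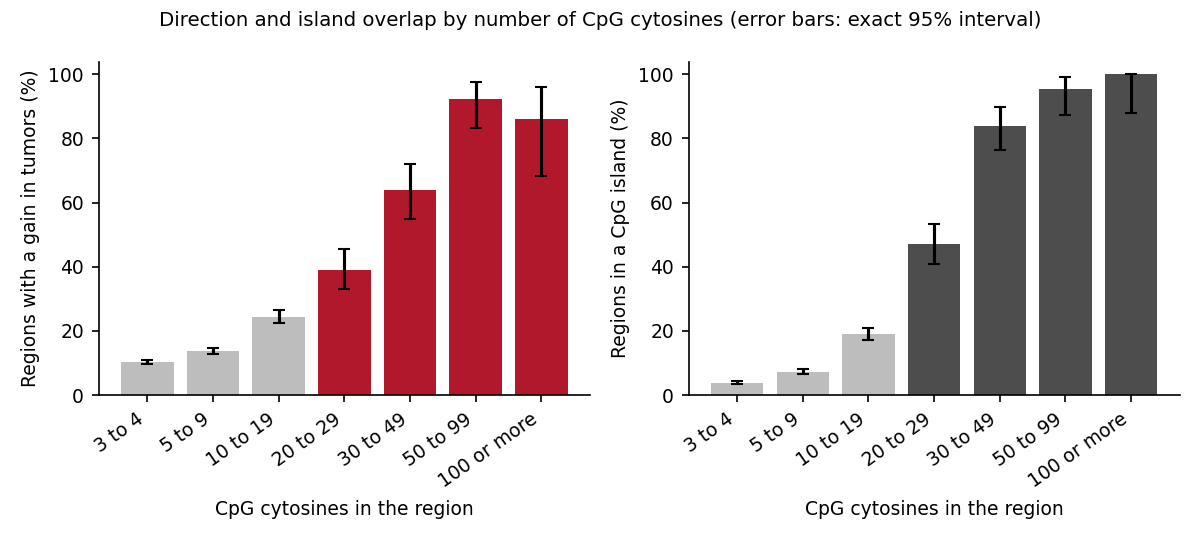
Share of regions with a gain of methylation in tumors (left) and share that overlap a sequence-defined CpG island (right), in percent, by number of CpG cytosines in the region. Coloured bars are the regions with 20 or more cytosines, error bars are exact 95% intervals, and the share of gains climbs from 10.3% at 3 to 4 cytosines to 92.4% at 50 to 99.

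The sizes of the differences were close to those of the other regions. Among the regions with 20 or more cytosines the median gain was 26.4 points (25.4 to 27.6) and the median loss -23.2 points (-24.6 to -22.6). In the other regions they were 27.4 points (26.8 to 27.8) and -25.0 points (-25.1 to -24.9). The differences of these regions ran from -58.7 to 62.5 points, with interquartile ranges of 23.1 to 32.4 points for gains and -28.7 to -21.4 points for losses. At the study's stated limit of 30 points 138 of the 476 regions passed (28.99%), beside 23.5% of all regions, and 91 of these 138 were gains. Split by direction, 34.1% of the gains passed, beside 37.8% of gains in the other regions, and 22.5% of the losses, beside 21.1%. The higher joint share thus went with the larger part of gains and not with larger differences in each direction. At 40 points or more there were 26 gains and 13 losses (66.7% gains), and 43.3% of the 686 other regions of that size were gains. At 20 to 25 points there were 106 gains and 123 losses (46.3% gains), beside 10.4% gains in the others. In the median region 49.7% of the cytosines were DMCs, beside 50% in the other regions. None of the 476 regions rested on fewer than 3 DMCs, while 17.2% of the others rested on 1. A mean of at least 20 points over 20 or more cytosines makes so few DMCs unlikely, so this count follows largely from the rule. The lowest share of DMCs was 18.8%.

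**Figure D2:**
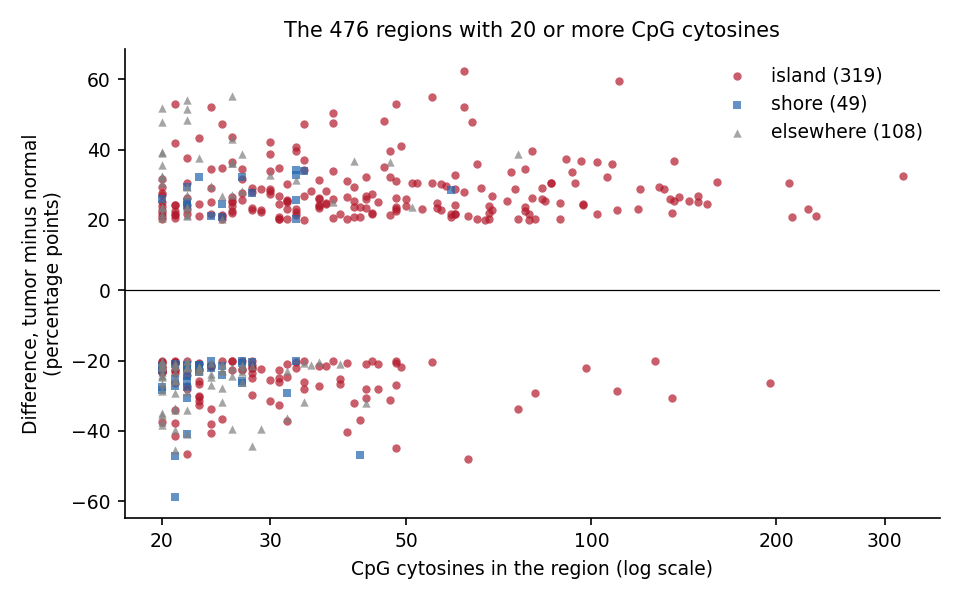
Difference in percent methylation, tumor minus normal, in percentage points against the number of CpG cytosines (log scale) for each of the 476 regions, marked by whether it overlapped an island, lay within 2000 bp of one or lay elsewhere. Gains and losses are both frequent near 20 cytosines, while 9 of the 95 regions with 50 or more cytosines are losses.

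The regions were long and lay near genes. Span and density follow in part from the rule, since more cytosines need more sequence or a higher density. A longer region also overlaps a TSS, an exon or an island more readily, and the shares below were not adjusted for span. Their median span was 611.5 bp (570 to 655), beside 155 bp for the others, and the longest reached 3205 bp. The median distance to the listed TSS was 9276 bp (7061 to 11625), beside 49630 bp. Within 2000 bp of a TSS, taken here as the promoter, lay 128 of them (26.9%, 23.0 to 31.1%), beside 5.46% of the others, and 46 spanned the TSS itself (9.66%, beside 0.42%). A coding exon was overlapped by 238 (50%, 45.4 to 54.6%), beside 8.43%. Regions in introns that touched no exon were 18.3% and intergenic regions 18.1%, beside 38.5% and 47.3%. A CpG island, defined from the sequence, was overlapped by 319 (67.02%, 62.6 to 71.2%), beside 7.20%. The listed gene is the one whose TSS the authors' table gives as nearest, and 142 of the 390 regions that lay inside a gene lay in another gene than the listed one. Over all regions the listed TSS matched a transcript start of the RefSeq annotation used here in 84.3%. Distances and promoter shares rest on the listed TSS, which need not be the nearest in this annotation.

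Regions that gained and regions that lost methylation differed in their sequence and place. The gains had a median of 35 cytosines (33 to 39) and the losses 24 (23 to 25). The median density was 7.31 per 100 bp in gains (6.601 to 7.70) and 4.38 in losses (4.02 to 4.75), while the median spans, 595 bp (537 to 663) and 618 bp (561 to 700), had overlapping intervals. Islands were overlapped by 79.4% of gains and 51.2% of losses, coding exons by 56.9% and 41.2%. The median distance to the TSS was 6224 bp for gains (4592 to 9766) and 12885 bp for losses (9235 to 19318), with overlapping intervals. Motifs were searched in the 300 bases around the midpoint of each region, which take in flanking sequence where a region is shorter. With a median span of 158 bp over all regions, the shares for all regions rest in large part on flank. The GC box (GGGCGG, searched on both strands) was found in 34.1% of gains and 19.1% of losses, beside 8.61% of all regions. The E-box CACGTG, which reads the same on both strands, was found in 4.87% of gains and 11.0% of losses, beside 5.13% of all regions. The intervals of the last pair overlapped (2.62 to 8.18% and 7.11 to 16.1%). The letters CCAAT, searched on both strands, were found in 20.6% of gains (15.9 to 26.0%) and 28.7% of losses (22.7 to 35.4%), with overlapping intervals, beside 39.8% of all regions. The palindrome TGACGTCA, the cyclic AMP response element, was found in 4 gains and 0 of the 209 losses, with overlapping intervals, beside 0.38% of all regions. The cut site CCGG, which the method requires nearby, was found in this window in 97.1% of the 476 regions and 97.9% of the others. Whole sites inside the regions themselves were found in 96.6% of the 476 and 22.7% of the others. Regions start and end within a CpG, so a cut site at the edge of a region loses a base and was not counted. The others were also shorter, so their lower share does not mean that they lacked a cut site.

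The larger share of gains was also present when regions of the same place or density were set side by side, as the plot of gains within classes shows. Within 2000 bp of a TSS 64.1% of the regions with 20 or more cytosines were gains, beside 28.2% of the others. Beyond 100 kb the shares were 45.6% of 57 regions and 3.09% of 4592. Of the 26 gains among these 57 regions, however, 19 lay in 1 stretch of chromosome 12 between 18 and 24 Mb. Most of those shared sequence with each other, so this class rests largely on 1 locus. Among regions in islands they were 66.5% of 319 and 25.9% of 986. In shores, the 2000 bp beside an island, the intervals overlapped, with 32.7% of 49 regions (19.9 to 47.5%) beside 20.04% of 2196 (18.4 to 21.8%). At a density under 4 cytosines per 100 bp 35.6% of the regions were gains, beside 11.4%, and at 10 or more per 100 bp 83.2%, beside 24.1%. Among regions that spanned 800 bp or more 58.7% of 155 were gains, beside 17.2% of 64 with fewer cytosines. Within islands the share of gains was 47.5% at 20 to 29 cytosines, 66.97% at 30 to 49 and 90.2% at 50 or more. Outside islands it was 31.6% of 133 regions, 47.6% of 21 and 3 of 3.

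**Figure D3:**
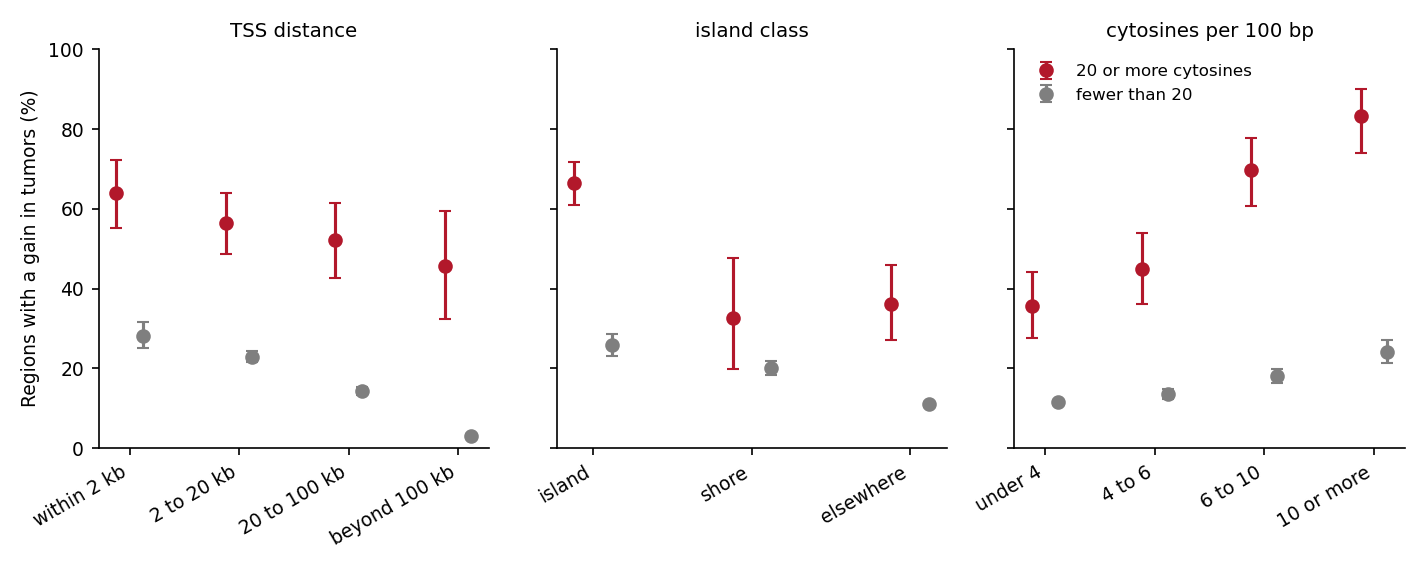
Share of regions with a gain in tumors, in percent, for regions with 20 or more cytosines (red) and fewer (grey) within classes of distance to the listed TSS, island overlap and cytosines per 100 bp, with exact 95% intervals. The red points lie above the grey points in each class, and in shores alone the intervals overlap (32.7% of 49 regions beside 20.04%).

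Directions by chromosome rested on few regions. On chromosome 12 29 of 36 regions were gains, beside 13.8% of the regions with fewer cytosines there. Of these 29 gains 19 lay between 18 and 24 Mb, 17 of them with sequence shared among them, and outside that stretch 10 of 17 regions were gains. On chromosome 1 15 of 20 were losses, beside 88.0% of the others. On the X chromosome 6 of 7 regions were gains, beside 13 of 374 regions with fewer cytosines. The gains on X included the regions at Cdx4, a homeobox gene of the early embryo (30.3 points), and Dusp9, a phosphatase of MAP kinases (26.5 points), and those nearest to Las1l (34.4 points) and Mpp1 (25.2 points). The 1 loss lay in an intron of Bcor, a corepressor (-22.6 points). All 7 overlapped an island.

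The largest gains lay mostly inside genes and away from the TSS. In Scn8a, a voltage-gated sodium channel of neurons, the coding exon printed above stood 47269 bp downstream of the TSS with 62.5 points. A second region over the TSS of Scn8a had 9 DMCs of 26 cytosines and 22.4 points. In Tspan9, a tetraspanin of the cell membrane, all 111 cytosines of an exonic island were DMCs, with a difference of 59.5 points. An intron of Ctdspl, a phosphatase gene, followed with 55.3 points over 26 cytosines outside any island. A coding exon of Zc3h12d, a zinc finger gene of RNA decay whose region is listed under Mir5104, had 55.03 points with all 55 cytosines DMCs. Agmat, agmatinase, had 54.0 points in a coding exon 2919 bp from the TSS. The other 5 of the 10 largest gains, between 51.9 and 53.0 points, lay in exons of Cacna1c, an L-type calcium channel, Hhipl1, Sh3pxd2a, a scaffold of invasive cell protrusions, and Aatk, a kinase gene, and in an intron of Spsb4, part of a ubiquitin ligase. Of these 10 regions 7 overlapped an island, and none lay within 2000 bp of the listed TSS.

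The 10 largest losses reached from -58.7 to -41.0 points with 21 to 63 cytosines each, and the 10 largest gains from 51.9 to 62.5 points with 20 to 111. After the region listed under Cpn2, a subunit of a carboxypeptidase secreted by the liver, came a coding exon of Hhipl1 with 61 DMCs of 63 cytosines and -48.0 points. Exoc3l4, listed under Tnfaip2, had -47.1 points, and Caskin2 had -46.9 points with 41 DMCs of 42 cytosines, 1158 bp downstream of its TSS. Hyal2, a hyaluronidase, had -46.5 points. Lif, a cytokine of the interleukin-6 family, had -45.4 points with 20 DMCs of 21 cytosines, and Rfx4, a transcription factor, -44.9 points with 43 of 48. The last 3 were a region 2812 bp from Hist1h2ba, a histone of the testis (-44.3 points), an intron of Aff3, listed under Rev1 (-41.5 points), and Osgin1, a growth inhibitor induced by oxidative stress (-41.0 points). Of these 10 regions 4 overlapped an island.

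In 6 of the 476 regions (1.26%) every cytosine was a DMC, a smaller share than the 7.74% of the regions with fewer cytosines. They were the gains in Tspan9, Zc3h12d, Cacna1c, Hhipl1 and Spsb4 and the loss at Osgin1, with 20 to 111 cytosines each. The regions with fewer cytosines had 1061 such cases, of which 725 held 3 or 4 cytosines.

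Near the TSS 82 regions gained and 46 lost methylation. Of these 128 regions 65 lay wholly downstream of the TSS (39 gains), 46 spanned it (33 gains) and 17 lay upstream (10 gains). A coding exon was overlapped by 96 of them (75%). The promoter gains named below all lay downstream of the listed TSS and in a coding exon. The largest promoter gains were in Extl1, a glycosyltransferase of heparan sulfate synthesis (48.1 points, 927 bp downstream of the TSS), and Srd5a2, which converts testosterone into dihydrotestosterone (47.4 points). Rims2, of the presynaptic active zone, had 47.3 points 32 bp from its TSS, and Nlrp6, an inflammasome sensor, 39.7 points. A region 1361 bp from the TSS of the microRNA gene Mir33 had 39.4 points and lay in a coding exon of Srebf2, the activator of cholesterol synthesis genes, where it was not placed against the TSS of Srebf2 itself. Igfals, which hepatocytes secrete as part of the complex that carries insulin-like growth factors, had 38.7 points over 76 cytosines in 1793 bp. After Caskin2 and Hyal2 the largest promoter losses were in Vasp, a regulator of actin (-41.0 points), Slc41a3, a magnesium transporter (-39.8 points), Cdpf1 (-37.0 points) and Nab2, a repressor of EGR transcription factors (-32.2 points). The regions of Slc41a3 and Cdpf1 spanned the TSS. Of the promoter gains 89.0% overlapped an island, and of the promoter losses 69.6%.

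The regions with most cytosines were gains, with 1 exception among 6. Zfp316, a zinc finger gene, held 321 cytosines over 2415 bp with 223 DMCs and a gain of 32.4 points. Rbmxl2, an RNA-binding gene of the testis, held 232 (21.1 points), Zcchc3 225 (23.2 points), Dact3, an antagonist of Wnt signalling, 212 (20.9 points) and Amn, needed for the uptake of cobalamin, 210 (30.6 points). Agap3, a regulator of Arf GTPases, held 195 cytosines with 113 DMCs and a loss (-26.3 points). The 9 losses with 50 or more cytosines were those of Agap3, the exon of Hhipl1 above, Btg2, an antiproliferative gene whose region lay 15056 bp from its TSS (-33.8 points), Carmil1 (-30.6), Irf2bp1 (-29.3), Foxp4 (-28.6), Fam43a (-22.2), Il17d (-20.3) and Ildr2 (-20.02). All 9 lay in islands. The 4 longest regions differed in density. The 3205 bp over the TSS of Lpp held 45 cytosines, or 1.40 per 100 bp (25.02 points), the 2958 bp of Rusc2, listed under Fam166b, 53, or 1.79 per 100 bp (23.1 points). The 2415 bp of Zfp316 held 13.3 per 100 bp and the 2277 bp of Foxp4 4.83.

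Opposite directions occurred at a minority of the genes listed for 2 regions. Of 440 listed genes 414 stood for 1 region, 23 for 2 and 3 for 3 or more. Among the 23, the pair changed in opposite directions at 4. Hhipl1 had a gain of 52.9 points and a loss of -48.0 points in coding exons within 7.08 kb. Adamtsl5, a gene of the extracellular matrix, had 48.0 points with 62 DMCs of 64 cytosines and -29.9 points with 20 of 28, within 3.79 kb. The pair in Aatk, listed under Mir3065, had 52.1 and -21.7 points within 3.35 kb. The pair listed under Cpn2 did not lie in 1 gene. It had 22.4 points in a coding exon of Cpn2 and -58.7 points in an intron of Gm26562, 80631 bp from the TSS.

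Some regions shared part of their sequence with each other, and these moved in 1 direction within each group, as the plot of sequence groups shows. Regions were joined, directly or through another region, when they shared at least 10% of the 31-base words of the smaller one. This rule was chosen after values were seen. On chromosome 12 between 18.85 and 23.8 Mb 17 regions formed such a group. All 17 were gains (21.8 to 41.9 points, median 26.7) and all overlapped an island, with 21 to 154 cytosines. Between 18 and 24 Mb of the chromosome there were 19 regions with 20 or more cytosines and all 19 were gains, beside 8 gains among the 20 regions with fewer. Of these 19 regions 14 lay in genes with a Gm symbol, and they were listed mainly under 5730507C01Rik (9), 2410018L13Rik (4) and 1700030C10Rik (3), the 3 listed genes with 3 or more regions. Smaller groups on chromosomes 4 (3 regions, 20.2 to 23.99 points) and 13 (2 regions, 21.1 and 21.4 points) were also gains. Over whole regions the highest share of common words in the chromosome 12 group was 50.4%, and the pair below shared 22.4%. The printed stretches, 1 listed under 5730507C01Rik (chr12:19044212-19044361, plus strand, 24.4 points) and 1 under 2410018L13Rik (chr12:22274844-22274993, minus strand, 23.2 points), show how alike parts of them are, with 5 mismatches in 150 bases.
5730507C01Rik: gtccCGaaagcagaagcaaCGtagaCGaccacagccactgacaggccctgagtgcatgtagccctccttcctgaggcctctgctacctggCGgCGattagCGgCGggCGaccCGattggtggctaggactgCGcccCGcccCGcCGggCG
2410018L13Rik: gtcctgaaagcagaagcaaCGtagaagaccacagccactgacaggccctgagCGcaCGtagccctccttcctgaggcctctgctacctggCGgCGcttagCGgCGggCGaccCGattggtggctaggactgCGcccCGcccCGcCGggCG
Copies were sought for the 300 bases around the midpoint of each region, so a match in a region shorter than 240 bases included flanking sequence. A near-identical copy, at least 95% identical over at least 240 of these bases, was found elsewhere in the reference for 28 of the 476 regions (5.88%), of which 25 were gains. In the regions with fewer cytosines 822 had such a copy (6.00%), and 47 of these were gains. Without all regions that had a copy 46.0% of the regions with 20 or more cytosines were losses, beside 43.9% with them. Whether reads from 1 copy were placed in another was not tested.

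Few of these regions lay in repeats. In 15 of the 476 regions (3.15%) at least 50% of the bases were masked as repeats in the reference, beside 28.1% of the other regions. All 15 were intergenic and 14 were losses, from -29.2 to -20.03 points, with a gain near Ankrd49 (20.4 points) as the exception. The share of losses, 93.3%, was near the 97.1% of the 3852 masked regions with fewer cytosines. Of these losses 7, on 6 chromosomes, shared words of sequence with each other and had between 20 and 26 cytosines (-24.4 to -20.1 points).

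**Figure D4:**
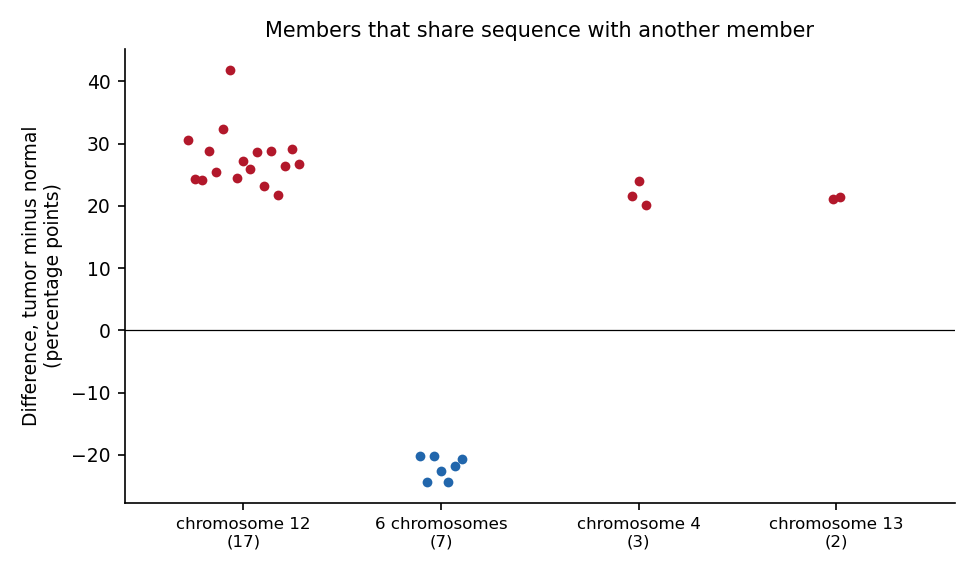
Difference in percent methylation, tumor minus normal, in percentage points for the regions that share 31-base words with another region, with the number of regions of each group in parentheses and 1 point per region. All 22 regions of the groups on chromosomes 12, 4 and 13 are gains, and all 7 of the repeat group spread over 6 chromosomes are losses.

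Gene lists of the liver, of signalling and of cell types were read by counts, with 56.1% gains over the 476 regions as the reference. Each region was counted for the listed gene and for the gene it lay in. Of 43 genes of hepatocyte identity and secretion 3 had a region with 20 or more cytosines. The gains were Igfals and both regions at Onecut1, a transcription factor of hepatocytes (34.7 and 25.8 points), and the loss lay 9235 bp from Foxa1, a pioneer factor of the liver (-25.3 points). The other 41 regions of the list were also mostly gains, with 27 gains and 14 losses. Of 24 genes of bile acid and cholesterol metabolism Srebf2 alone had one, and the other 19 regions had 9 gains and 10 losses. Of 27 genes of xenobiotic metabolism none had one, which is no result about these genes with 8 regions in all, and 6 of the 8 were gains. For Ras and MAPK signalling 5 regions were found, and the other 29 regions had 5 gains and 24 losses. Rasal1, a GTPase-activating protein that turns Ras off, had gains of 23.8 and 21.5 points in coding exons, and the region listed under Mapk8, in Arhgap22, had 28.95 points. Regions upstream of Dusp5 and Dusp6, phosphatases that switch off the kinase ERK, had losses of -38.5 points at 28674 bp and -33.9 points at 58831 bp.

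Developmental transcription factors had 9 regions with 20 or more cytosines, and 6 of them were gains. The other 185 regions of the same 153 genes had 16 gains and 169 losses. The gains were a region in an intron of Dlx4 (33.7 points), a region 4216 bp upstream of its TSS (30.4 points), a region listed under Dlx4 but in Gm11515, 56299 bp upstream (33.9 points), and the regions listed under Neurog2 (31.6 points, in Alpk1), Tbx3 (25.4 points) and Otx1 (23.5 points). The losses were those at Gata3 (-22.4 points), Olig1 (-21.4 points) and Sox1 (-21.0 points). Voltage-gated ion channels had 6 regions. The gains were both regions of Scn8a, Cacna1c and Cacna1b (21.7 points), and the losses were Cacna1h (-20.1 points) and a repeat 687547 bp from Kcnd2 (-24.4 points), while the other 95 regions had 5 gains and 90 losses. Wnt signalling had gains at Fzd7, a Wnt receptor (30.6 points), and Wnt10b, a ligand (24.1 points), while the other 54 regions had 16 gains and 38 losses. Enzymes of DNA methylation and chromatin had gains in Smarca2, an ATPase of the SWI/SNF complex (47.5 points), and Kdm4a, a histone demethylase (32.7 points), and a loss in Tet3, which oxidizes methylcytosine (-31.5 points), and the other 24 regions had 7 gains and 17 losses. None of the 40 imprinted genes had a region with 20 or more cytosines, and their 20 regions with fewer had 2 gains and 18 losses. With 20 regions in all and a share of 3.36% over the table, that absence is no result about these genes. A shortlist of 27 genes that the study chose on these samples had 4, Extl1 and Igfals with gains and Vasp and Btg2 with losses, beside 13 gains and 25 losses in its other 38 regions, and is no independent evidence of direction.

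Markers of other cells of the liver had 1 of these regions among 56 regions in all (1.79%, 0.0452 to 9.55%), beside 3.36% over the table. None of the 26 leukocyte, 17 stellate cell and fibroblast and 12 cholangiocyte markers had a region with 20 or more cytosines. Of the 15 endothelial markers Stab1, a scavenger receptor of sinusoidal endothelium, had a loss of -36.3 points in a coding exon. Those marker lists together had 55 regions with fewer cytosines, of which 5 were gains, beside 13.5% gains among all regions with fewer cytosines. The part of the mix of cells in the differences was not tested.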

How the data were processed

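Reduced representation bisulfite sequencing was done by the authors on 3 normal livers and 3 liver tumors, grouped by the labels. The authors trimmed reads with Trim Galore, aligned them as pairs to mm10 with Bismark, keeping unique best hits, and counted C and T reads per CpG cytosine with methylKit, each strand apart. DMCs passed thresholds on a logistic regression q-value, coverage and difference. Regions came from eDMR, and the nearest RefSeq TSS from bedtools 2.25.0, as the submitters' processing notes give it. For the other tools no version is given in the sources used. The deposited table holds other measures than counts per sample: for each region its mean difference in points, how many CpG cytosines and DMCs it had, its position and the nearest TSS. Read depth per region is unknown. The table starts at an absolute difference of 20 points, 3 cytosines and 1 DMC.

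Deposited starts lay in a CpG in 13.9% of regions as given and in 100% after adding 1, so 1 was added. Sequence and genes came from GRCm38 with its RefSeq annotation. Since strands were counted apart, 20 cytosines needed as few as 11 CpG dinucleotides here. Islands were runs of 200-base windows with at least 50% GC and an observed to expected CpG ratio of 0.6 or more, joined into stretches of 300 bp or longer. Copies were sought with minimap2 2.31, and statistics used Python 3.11.15 with scipy 1.17.1. The functions were tested on simulated data.

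The regions, the gene lists and the alternatives were chosen with earlier results of these data known. Named genes were the 10 largest gains and losses, the 6 regions with most cytosines, the 4 longest, the 6 largest promoter gains and losses, the 2 largest differences per gene list and genes listed for 3 or more regions. Others, among them the regions on X, the groups of shared sequence, the losses with 50 or more cytosines and further regions of the lists, were chosen after their values were seen. Some items are not reported here.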

Additional observations from a re-analysis of the deposited data

How the results depend on the processing

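Each result was recomputed under other choices, 73 values in all, of which 37 stayed within the 95% interval of the reported value and 36 moved outside it. A change of sign was possible only for the difference between the shares of losses, since all other results have a fixed sign, and it did not occur. The majority changed from gains to losses with at least 15 cytosines and with at least 10 CpG dinucleotides. With at least 15 cytosines (881 regions) the share of losses was 55.7% and its difference from the other regions -31.3 points, the median span 468 bp, the density 4.80 cytosines per 100 bp, the TSS distance 16224 bp, and promoters, islands and coding exons held 19.5%, 49.6% and 39.3%. With at least 30 cytosines (225 regions) these values were 24.9%, -61.1 points, 777 bp, 7.20 per 100 bp, 4590 bp, 37.3%, 89.3% and 64.9%, with a median loss of -25.9 points and 51.2% DMCs. With at least 10 CpG dinucleotides (1664 regions) they were 67.8%, -19.5 points, 451.5 bp, 3.11 per 100 bp, 22284.5 bp, 14.96%, 39.4% and 29.1%, with 45.7% DMCs. At 30 points or more (138 regions) 34.1% were losses, the median gain was 36.1 points and the median loss -36.6 points, the density 6.69 per 100 bp, the DMC share 78.5% and the coding exon share 55.1%. Promoters of 1000 bp held 20.6%, and islands by a stricter definition (at least 500 bp, 55% GC and a ratio of 0.65) were overlapped by 31.9%. Among regions in islands alone, a choice added after seeing the data, 33.5% were losses. Leaving out masked regions or the sex chromosomes moved none of the 11 results outside its interval. Counting neighbours within 2000 bp once, run for the share of losses alone, and leaving out regions with copies, run for the share of losses and its difference and added after seeing the data, moved neither outside.

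The direction of a region rests on the authors' call from 3 livers against 3, and regions, not mice, were counted. No paired analysis was possible because the table holds no value per sample, and leaving out a replicate was not possible for the same reason. Depth behind a region's value is unknown.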
